A study of Oryctolagus cuniculus with 9 samples.

Results

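The genes described here encode the proteins of the mitochondrial ribosome (mitoribosome) and were chosen by symbol, as every row of the deposited table whose gene name begins with MRPL or MRPS and a number. There were 70 such rows among 20525 genes, and all 70 passed the filter on low counts, as did 17344 genes (84.5%) in all. The symbols placed 45 proteins in the large subunit, 24 in the small subunit and 1, MRPS36, outside the ribosome. MRPS36 carries a ribosomal name but is now known as KGD4, a component of the 2-oxoglutarate dehydrogenase complex. It was kept because the symbol set the membership, and counts without it are given where they differ. RNA was purified on oligo(dT) beads from vocal folds of the rabbit (Oryctolagus cuniculus) and sequenced in 9 libraries, 3 per group. Normal folds were not injured, untreated folds were injured and received no treatment, and SOT folds were injured and received a hydrogel of that name, which the title of the series calls antioxidant and adhesive and which the labels do not expand. Injured folds were taken 1 week after injury. No strain, sex, age or genetic change is named for any group, and the labels do not say whether replicates came from separate animals, so each p-value reflects only how far these libraries spread, which may be technical.

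The mitoribosome sits in the mitochondrial matrix and makes the few respiratory chain and ATP synthase subunits that the mitochondrial genome encodes. Its ribosomal RNAs come from mitochondrial DNA, while all of its proteins are encoded in the nucleus, made in the cytosol and imported. One class of these proteins has counterparts in bacterial ribosomes, and another class is specific to mitochondria and lies mostly on the surface of the particle. Defects in single mitoribosomal proteins are known causes of respiratory chain disease, which often affects heart and muscle.

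Total counts were between 44755718 and 50338111 per library. The cell type label names histiocytes and the tissue label names the vocal fold, and the libraries held whole tissue: summed FPKM (fragments scaled to transcript length and library size) of 17 skeletal muscle markers was between 11845 and 14323 in normal, 433 and 4201 in untreated and 1207 and 5293 in SOT libraries. Summed FPKM of 12 macrophage markers was between 167 and 241 in normal and between 1134 and 1331 in untreated libraries, and was 805, 558 and 510 in SOT replicates 1 to 3. For 9 neutrophil markers it was between 1013 and 3429 in normal, 6998 and 9449 in untreated and 2977 and 6924 in SOT libraries. In untreated against normal folds, 11 of the 17 muscle markers fell (edgeR, adjusted p under 0.05), 11 of the 12 macrophage markers rose, and 9 of 10 cartilage markers fell. Of the neutrophil markers 7 rose, of 10 fibroblast markers 6 rose and 2 fell, and of 10 proliferation markers 9 rose. The proliferation count was 5 when normal replicate 2, untreated replicate 2 or untreated replicate 3 was left out, and 1 fibroblast marker fell instead of 2 when normal replicate 1 or 2 or any untreated library was. Leaving out any single normal library, or untreated replicate 2, dropped the muscle count from 11 to 2, and leaving out untreated replicate 3 dropped it to 1. No muscle or macrophage marker was at 0 in any library, and of the cartilage markers COL9A1 was at 0 in at least 1 untreated library and MATN1 in at least 1 SOT library. In bulk tissue, fewer cells of a type and less RNA per cell cannot be told apart, and the part of cell composition in the results that follow was not tested.

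The mitoribosomal genes were mostly expressed at moderate levels, which differed between genes. The median of their mean FPKM was 20.1, against 6.62 for all tested genes, and the range ran from 5.92 to 78.2. Large subunit genes had a median of 22.2 FPKM and small subunit genes 18.3 FPKM. The highest levels per length belonged to MRPL17 at 78.2 ± 25.4 FPKM (SD, n = 9 libraries) and MRPL20 at 78.1 ± 8.99 FPKM, both large subunit proteins with bacterial counterparts. MRPL33, another bacterial-type protein, followed at 53.1 ± 7.14 FPKM, and MRPL40, a mitochondria-specific one, at 48.5 ± 4.82 FPKM. These ranges touch: the order of MRPL17 and MRPL20, and of MRPL33 and MRPL40, does not hold beyond their spread. The lowest were MRPL21 at 5.92 ± 1.19 FPKM, MRPL48 at 7.33 ± 2.41 FPKM and MRPL46 at 7.39 ± 1.02 FPKM, whose ranges also overlapped.

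**Figure D1:**
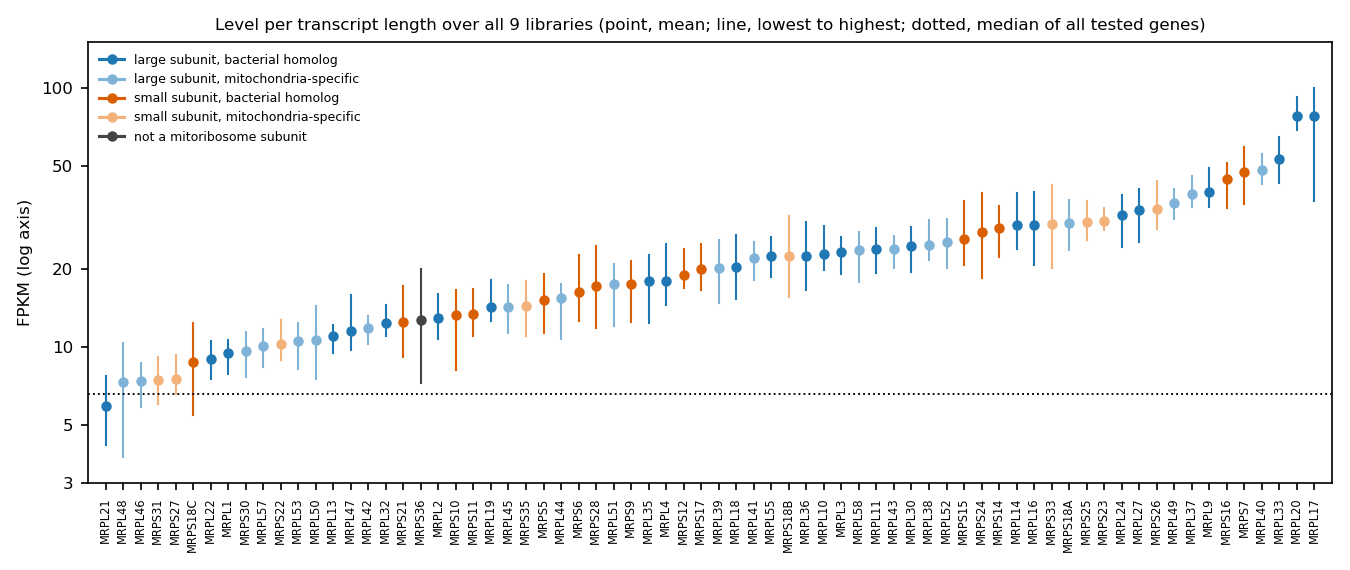
Mean FPKM over all 9 libraries (vertical log axis) for each of the 70 genes in rising order, coloured by class, with lines from the lowest to the highest library. All means but that of MRPL21 (5.92) lie above the dotted median of all tested genes (6.62), and the longest lines belong to genes such as MRPL17, MRPL48 and MRPS36 whose level varied among libraries.

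Replicates of these genes lay close together. The median standard deviation of log2 CPM (counts scaled to the size of the library, with TMM factors) within groups was 0.16 for the 70 genes and 0.26 for all tested genes. MRPL41 (0.062), MRPL37 (0.068) and MRPL43 (0.088), all mitochondria-specific large subunit proteins, varied least. MRPL17 (0.54), MRPL48 (0.303) and MRPL35 (0.288) varied most. The lowest count of any of these genes in any library was 100, in MRPL21.

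The genes are scattered over the genome (build OryCun2.0). Of the 70, 20 lie on unplaced scaffolds and the others on 17 chromosomes, with at most 7 on one. Many sit back to back with another gene: 22 of 70 (31.4%) have a neighbour on the opposite strand whose start lies within 1000 bp of their own and points away, against 2132 (10.4%) of all genes in the table. One such pair joins both subunits, MRPL46 and MRPS11. MRPL47 faces NDUFB5, a subunit of respiratory complex I, MRPL18 faces the chaperonin gene TCP1, and MRPL49 faces FAU, which encodes a cytosolic ribosomal protein. Between untreated and normal folds the log2 fold change was -0.93 for NDUFB5 (adjusted p = 0.00275, edgeR) and -0.23 for MRPL47 (adjusted p = 0.423, 95% interval -0.69 to 0.24). For MRPL46 and MRPS11 the values were -0.29 (adjusted p = 0.12) and -0.20 (adjusted p = 0.328). Differences within these pairs were not tested.

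The first comparison asks how injury without treatment differs from the uninjured fold. In untreated folds 16 of the 70 genes (22.9%) fell, none rose and 54 did not pass (edgeR quasi-likelihood test, adjusted p under 0.05). Over all tested genes 32.8% passed, 15.1% lower and 17.7% higher, so the share of members called in either direction lay below the background and the calls that were made were all lower. The median log2 fold change of the 70 genes was -0.22, against -0.02 for all tested genes, and 60 of 70 were fitted below 0, against 51.7% of all tested genes. At an unadjusted p under 0.05, 25 members passed, against 44.7% of all tested genes. The 3 untreated libraries lay wholly below the 3 normal libraries for 37 members, against 27.1% of all tested genes, and wholly above for 3, against 28.0%. For scale, the median deviation of the members in a library varied within groups with a pooled SD of 0.081 on the same log2 scale. With DESeq2 24 members fell, where 41.5% of all tested genes passed.

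**Figure D2:**
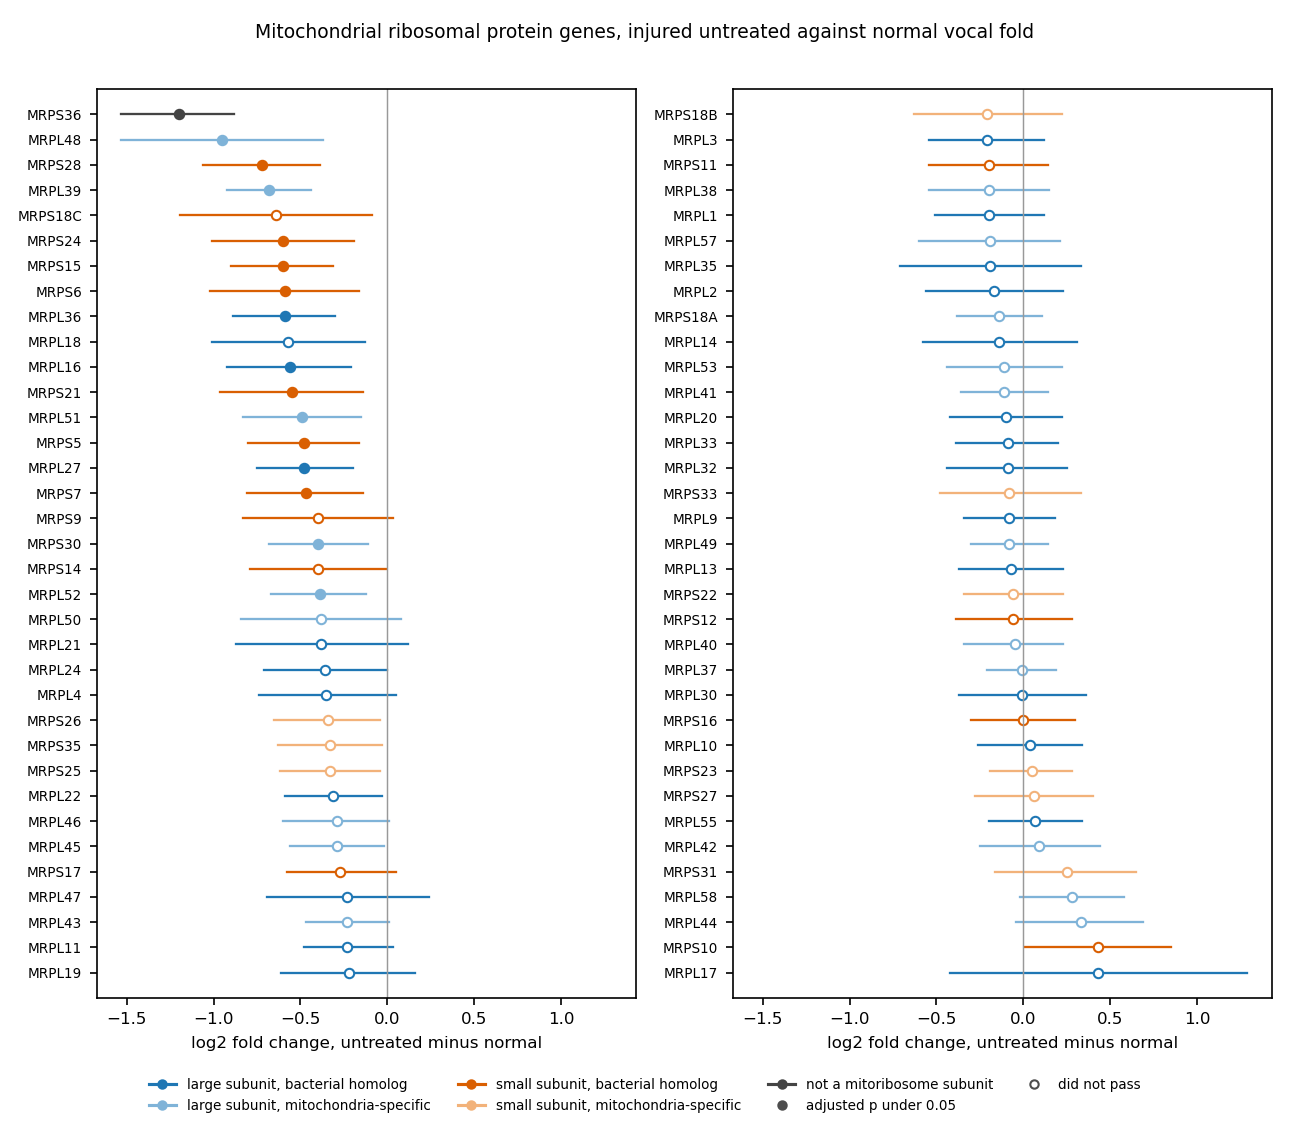
Log2 fold change between untreated and normal folds (horizontal axis) with 95% intervals for all 70 genes in order of size, coloured by class, with filled points for adjusted p under 0.05. The 16 filled points all lie on the left of 0, from MRPS36 at -1.20 to MRPL52 at -0.39, and no gene on the right of 0 passed.

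MRPS36, the dehydrogenase component, had the largest change. It was at 29.4, 29.4 and 29.9 CPM in normal replicates 1 to 3, at 14.3, 11.4 and 12.8 CPM in untreated replicates and at 16.4, 12.5 and 15.5 CPM in SOT replicates. All 6 injured libraries lay far below all 3 normal ones, and the untreated and SOT libraries overlapped. Between untreated and normal folds the log2 fold change was -1.20 (SE 0.14, adjusted p = 0.00106), a level 0.435 times the normal one. The gene lies on chromosome 11 from 85424467 to 85434548. Its value can be set beside those of the other subunits of the complex, which were added to the lists after the value of MRPS36 was seen. OGDH, the first enzyme of the complex, fell by 0.84 on the log2 scale (adjusted p = 0.00684). DLST, the second, fell by 0.54 (adjusted p = 0.00534), and DLD, the third, which other dehydrogenase complexes share, fell by 1.22 (adjusted p = 0.00199). Each of these 4 calls held in all 9 fits that leave out 1 library.

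Among true ribosomal proteins, MRPL39, a mitochondria-specific protein of the large subunit on chromosome 14 (154701690 to 154738089), had the change with the smallest adjusted p. Normal replicates were at 40.0, 40.9 and 39.8 CPM, untreated replicates at 26.1, 25.6 and 23.6 CPM and SOT replicates at 31.8, 26.2 and 27.9 CPM. The 3 groups did not overlap, with normal highest, SOT between and untreated lowest. SOT replicate 2 (26.2 CPM) was barely above untreated replicate 1 (26.1 CPM). The difference between SOT and untreated folds did not pass (adjusted p = 0.491, edgeR). The log2 fold change between untreated and normal folds was -0.68 (SE 0.10, adjusted p = 0.00269).

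MRPL48, also specific to the mitochondrial large subunit, showed the largest fall of any ribosomal member, with a wide interval. Its CPM values were 11.2, 12.5 and 12.3 in normal, 8.16, 5.90 and 4.63 in untreated and 9.12, 5.78 and 9.07 in SOT replicates. Injured libraries lay below normal ones without overlap, and the untreated replicates themselves spread widely. The log2 fold change was -0.95 (SE 0.25, 95% interval -1.53 to -0.37, adjusted p = 0.0227). A near copy of this gene, a locus that the deposited table also describes as MRPL48, has its own row. It was lower too, by -1.16 (adjusted p = 0.0106), and the authors' counting may have divided reads between both.

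The small subunit proteins with bacterial counterparts had the lowest median of the 4 classes. Of 15 such genes 7 fell (46.7%, against 15.1% of all tested genes), and their median log2 fold change was -0.47. MRPS28 (chromosome 3, 95623097 to 95774016) was at 16.5, 14.3 and 17.5 CPM in normal, 10.4, 10.1 and 8.67 CPM in untreated and 12, 9.89 and 10.3 CPM in SOT replicates. MRPS15, which contacts the ribosomal RNA of the small subunit and lies on an unplaced scaffold, was at 39.7, 30 and 37.1 CPM in normal, 24.7, 22.9 and 22.6 CPM in untreated and 23.4, 21.1 and 24.4 CPM in SOT replicates. For both genes every injured library was below every normal one. The log2 fold changes between untreated and normal folds were -0.72 (SE 0.15, adjusted p = 0.00772) for MRPS28 and -0.60 (SE 0.13, adjusted p = 0.0095) for MRPS15.

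The other 5 of this class that fell were MRPS5, MRPS6, MRPS7, MRPS21 and MRPS24 (named, like the called large subunit genes below that no rule picked, because they passed). MRPS5 and MRPS24 lie at the entry of the messenger RNA channel, and MRPS7 is a core protein of the small subunit head. MRPS7, the most abundant of them, was at 81.6, 74.4 and 78.2 CPM in normal, 57.8, 52.6 and 58.2 CPM in untreated and 81.9, 56.0 and 58.3 CPM in SOT replicates. SOT replicate 1 was thus at the normal level and the other two SOT replicates at the untreated level. The fold changes of the 5 genes ran from -0.47 for MRPS7 (adjusted p = 0.0396) to -0.60 for MRPS24 (adjusted p = 0.0336). MRPS7 overlaps MIF4GD, and the strandedness of the counting is not given in the sources used here, so reads from both genes could not be told apart. MRPS6 has a near copy that held 0 to 2 counts per library.

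In the same class, 8 genes did not pass. MRPS18C had a value of -0.64 with a wide interval (-1.19 to -0.09, adjusted p = 0.074). MRPS16 had a value of -0.00 (95% interval -0.30 to 0.30, adjusted p = 0.987) and MRPS12, a protein of the decoding site, -0.06 (95% interval -0.39 to 0.28, adjusted p = 0.794). MRPS10 went the other way. It was at 15.5, 11.3 and 16.9 CPM in normal and 18.9, 23.0 and 17.1 CPM in untreated replicates, groups that did not overlap, with a value of 0.43 that did not pass (adjusted p = 0.102).

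None of the 9 mitochondria-specific proteins of the small subunit passed, and their median was -0.08, with values from -0.34 to 0.25. MRPS22, one of them, was nearly flat at 17.7, 17.4 and 17.8 CPM in normal, 17.6, 17.4 and 15.8 CPM in untreated and 21.5, 17.0 and 17.9 CPM in SOT replicates. Its log2 fold change between untreated and normal folds was -0.06 (95% interval -0.34 to 0.23, adjusted p = 0.752), an interval that leaves room for a fall as large as the median of the whole set. MRPS26 (-0.34, adjusted p = 0.0798), MRPS25 (-0.33, adjusted p = 0.0773) and MRPS35 (-0.33, adjusted p = 0.0831) had the lowest values of the class. Whether the classes of the small subunit differ from each other was not tested.

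In the large subunit, 8 of 45 genes fell (17.8%, against 15.1% of all tested genes) and the median was -0.20 in both of its classes. Of 25 genes with bacterial counterparts, 3 fell, a share below that of all tested genes: MRPL16 (-0.56, adjusted p = 0.0259), MRPL27 (-0.48, adjusted p = 0.0177) and MRPL36 (-0.59, adjusted p = 0.00973). MRPL27 lies near the peptidyl transferase centre, and its row overlaps EME1. MRPL36 was at 42.1, 35.4 and 35.7 CPM in normal, 26.1, 23.3 and 25.5 CPM in untreated and 27.3, 31.7 and 24.8 CPM in SOT replicates, with every injured library below every normal one. Of 20 mitochondria-specific genes, 5 (25%) fell: MRPL39 and MRPL48 above, MRPL51 (-0.49, adjusted p = 0.037), MRPL52 (-0.39, adjusted p = 0.0378) and MRPS30 (-0.40, adjusted p = 0.0401). MRPS30 has a small subunit name but lies in the large subunit, and MRPL51 overlaps NCAPD2.

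The other large subunit genes did not pass. MRPL37 was at 59.6, 68.5 and 61.5 CPM in normal and 61.9, 62.9 and 63.3 CPM in untreated replicates (log2 fold change -0.01, 95% interval -0.21 to 0.19). MRPL41 had a value of -0.11 (95% interval -0.36 to 0.14) and MRPL3, in the core near the peptidyl transferase centre, -0.21 (95% interval -0.54 to 0.12). MRPL41 was at 14.4, 14.6 and 14.5 CPM in normal and 13.9, 12.4 and 14.1 CPM in untreated replicates, and MRPL3 at 41.5, 38.2 and 43.3 CPM in normal and 34.7, 34.5 and 37.5 CPM in untreated replicates. For both of these genes all untreated libraries lay below all normal ones. On the higher side, MRPL44 had a value of 0.33 (adjusted p = 0.146). MRPL58, a peptidyl-tRNA hydrolase that rescues stalled mitoribosomes, had a value of 0.28 (adjusted p = 0.13, and 0.0423 without normal replicate 3). The untreated libraries of MRPL58 (24.8, 24.2 and 25.4 CPM) lay just above the normal ones (18.2, 19.0 and 24.1 CPM).

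**Figure D3:**
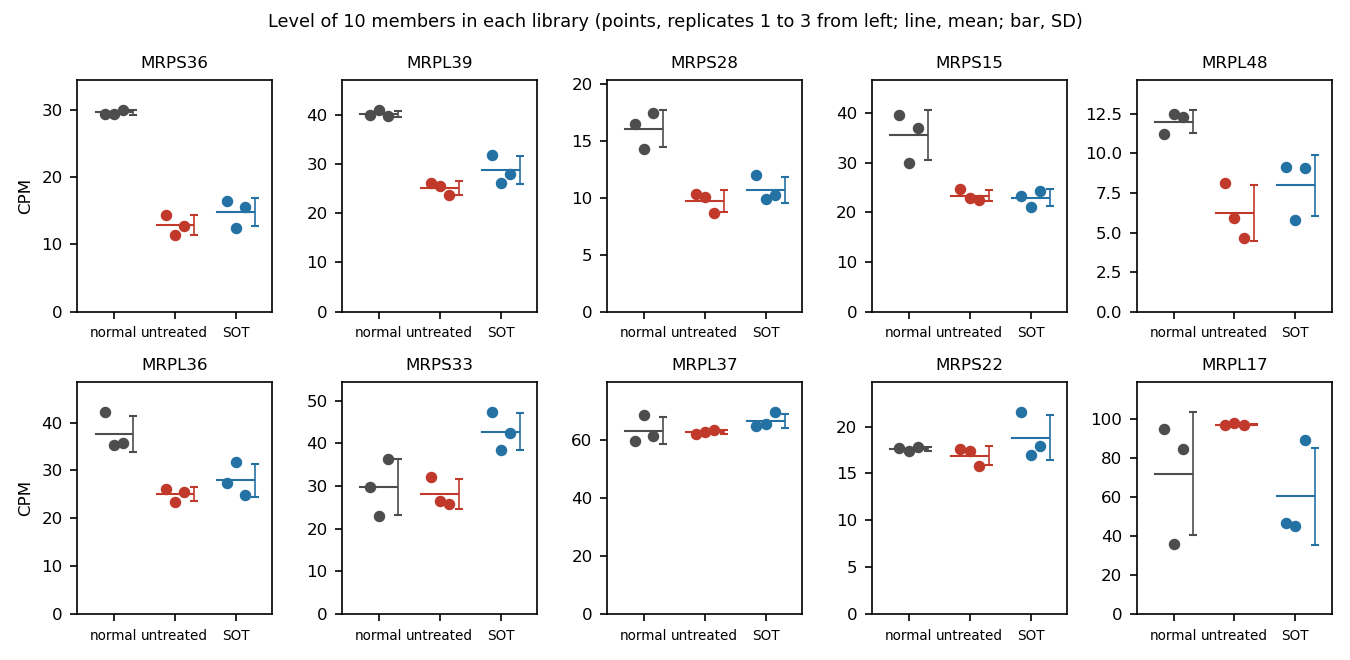
CPM (vertical axes from 0) of 10 genes in every library, with replicates 1 to 3 from left to right in each group, the group mean as a line and the SD as a bar. MRPS36, MRPL39, MRPS28, MRPS15, MRPL48 and MRPL36 have all normal libraries above all injured ones, MRPL37 and MRPS22 overlap between normal and untreated, MRPS33 is highest in SOT and MRPL17 is split within groups.

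Single libraries moved the number of calls between untreated and normal folds. Leaving out normal replicate 1 gave 8 calls, normal replicate 2 gave 7 and normal replicate 3 gave 8 lower and 1 higher (MRPL58). Leaving out either untreated replicate 2 or 3 gave 5, and the count lay between 13 and 19 without untreated replicate 1 or any SOT library. For the 15 bacterial-type small subunit genes the count of 7 dropped to 2 when normal replicate 1, normal replicate 3, untreated replicate 2 or untreated replicate 3 was left out, and to 4 when normal replicate 2 was. For the 25 bacterial-type large subunit genes the count of 3 became 1 when normal replicate 2, untreated replicate 2 or untreated replicate 3 was left out, and 5 when SOT replicate 1 was. For the 20 mitochondria-specific large subunit genes the count of 5 became 2 when replicate 1 of normal or untreated folds was left out, 2 (and 1 higher) when normal replicate 3 was, and 1 when normal replicate 2, untreated replicate 2 or untreated replicate 3 was. The class with no calls, the 9 mitochondria-specific small subunit genes, gained 1 without normal replicate 3, SOT replicate 1 or SOT replicate 3.

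MRPS36, MRPL39, MRPS28, MRPS15 and MRPL36 passed in all 9 such fits, with highest adjusted p of 0.00836, 0.0177, 0.04, 0.0452 and 0.0436. The other 11 did not. MRPL16 and MRPL48 were lost without normal replicate 2 or 3 or untreated replicate 2 or 3, and MRPL27 without normal replicate 2 or untreated replicate 2 or 3. MRPS24 was lost without normal replicate 1 or 3 or untreated replicate 2 or 3, and MRPS21 without any of these 4 or SOT replicate 1. MRPS5 was lost without any normal library or untreated replicate 2 or 3. MRPL52 was lost without normal replicate 1 or 2 or any untreated library. MRPL51, MRPS7 and MRPS30 were lost without any 1 of the 6 libraries compared, and MRPS6 without these or SOT replicate 2. The highest adjusted p in those fits was 0.155, for MRPS21.

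The hydrogel comparison asks how treated and untreated injured folds differ. None of the 70 genes passed between SOT and untreated folds (edgeR, adjusted p under 0.05), where 2 of 17344 genes did (0.0115%). DESeq2 called 1 member, MRPS33, and 3.94% of all tested genes. At an unadjusted p under 0.05, 4 members passed, against 12.6% of all tested genes: MRPS33, MRPS18A, MRPS18B and MRPS35, all higher in SOT. The median log2 fold change of the 70 genes was 0.11, against 0.01 for all tested genes. It was 0.05, against 0.03, when SOT replicate 1 was left out. Of the 70 genes 15 were fitted below 0, against 48.4% of all tested genes. The SOT libraries lay wholly above the untreated ones for 12 members, against 7.40% of all tested genes, and wholly below for 1, MRPL17, against 12.4%. Beside these values, all 12 macrophage markers were fitted lower in SOT than in untreated folds, with a median of -1.19. For 11 of them the libraries did not overlap, and 11 had an unadjusted p under 0.05. None of the 12 passed adjustment with all libraries, and 8 did when SOT replicate 1 was left out. All 9 neutrophil markers were fitted lower too, with a median of -1.59, and none passed with all libraries, against 3 when SOT replicate 1 was left out. The part of these cells in the values of the mitoribosomal genes was not tested.

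MRPS33, a mitochondria-specific protein of the small subunit head, was at 29.8, 23.0 and 36.2 CPM in normal, 32.1, 26.5 and 25.8 CPM in untreated and 47.2, 38.5 and 42.4 CPM in SOT replicates. All SOT libraries lay above all others, and normal and untreated overlapped. The log2 fold change between SOT and untreated folds was 0.60 (SE 0.18, 95% interval 0.20 to 1.01, adjusted p = 0.246 with edgeR), and DESeq2 gave 0.62 with an adjusted p of 0.0421. Between SOT and normal folds it was 0.52 (adjusted p = 0.076, edgeR). In that comparison MRPS33 passed as higher with DESeq2 (adjusted p = 0.0303) and limma-voom (adjusted p = 0.0499). It also passed with limma on log2(FPKM + 0.1) (adjusted p = 0.0456) and log2(FPKM + 1) (adjusted p = 0.0323), and with edgeR without normal replicate 3 (adjusted p = 0.0315). In the other fits tried it did not pass. MRPS18A, which lies in the large subunit despite its name, had a value of 0.31 between SOT and untreated folds (95% interval 0.06 to 0.55, adjusted p = 0.299) and MRPS18B 0.51 (95% interval 0.09 to 0.94, adjusted p = 0.315). MRPS33 overlaps LOC103345722 and MRPS18A overlaps RSPH9, so reads of the overlapping genes could not be told apart here either. MRPL39 was at 0.19 (95% interval -0.05 to 0.43, adjusted p = 0.491) and MRPS36 at 0.20 (95% interval -0.12 to 0.53, adjusted p = 0.589). Neither interval excludes 0.

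The lower side held MRPL42, a mitochondria-specific large subunit protein, at -0.22 (adjusted p = 0.582), and MRPL17 at -0.69 (95% interval -1.54 to 0.16, adjusted p = 0.488). MRPL17 was at 95.3, 36.2 and 84.7 CPM in normal, 97.2, 98.0 and 97.1 CPM in untreated and 46.8, 45.0 and 89.4 CPM in SOT replicates. Normal replicate 2 and SOT replicates 1 and 2 were low, and the other 6 libraries were high, so the level did not follow the groups.

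The last comparison sets SOT folds against normal folds. Of 70 genes 4 fell, MRPS36, MRPS15, MRPS28 and MRPL39, and none rose (edgeR). Over all tested genes 16.7% passed, 7.67% lower and 9.01% higher. DESeq2 called 9 members, 8 lower and 1 higher, and 27.8% of all tested genes. The median log2 fold change was -0.15, against 0.02 for all tested genes, and 48 of 70 were fitted below 0, against 48.2%. At an unadjusted p under 0.05, 18 members passed, against 33.7%. The SOT libraries lay wholly below the normal ones for 15 members, against 18.6% of all tested genes, and wholly above for 3, against 17.8%. This comparison shares its normal libraries with the first, and its values are set beside those of the first rather than compared with them: MRPS36 was at 0.501 times the normal level (adjusted p = 0.00617) beside 0.435 times. On the log2 scale MRPS15 was at -0.63 (adjusted p = 0.0164) beside -0.60, MRPS28 at -0.58 (adjusted p = 0.0312) beside -0.72 and MRPL39 at -0.49 (adjusted p = 0.0188) beside -0.68.

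MRPS36 passed in all 9 fits that leave out 1 library. MRPS15 was lost without normal replicate 1 (adjusted p = 0.0595, edgeR), MRPL39 without normal replicate 1 or 2 or SOT replicate 2 (up to 0.0654) and MRPS28 without normal replicate 1 or 3, untreated replicate 3 or SOT replicate 2 or 3 (up to 0.0932). The count of 4 became 1 when normal replicate 1 was left out, 4 lower and 2 higher for normal replicate 3, and 8 for SOT replicate 1.

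SOT replicate 1 stood apart from the other SOT libraries for these genes. It was the highest of the 3 SOT replicates for 53 of the 70 genes, against 36.5% of all tested genes. The mean log2 difference of the 70 genes from the normal mean was 0.00 in that library, -0.24 in SOT replicate 2 and -0.19 in SOT replicate 3. In untreated replicates 1 to 3 it was -0.18, -0.26 and -0.26, and in normal replicates 0.05, -0.09 and 0.04. Summed FPKM of the 70 genes was 1727, 1565 and 1767 in normal, 1484, 1393 and 1423 in untreated and 1751, 1571 and 1674 in SOT replicates. On this scale untreated libraries lay below all others, and normal and SOT overlapped. Summed CPM, the scale used here between libraries, was 2072, 1847 and 2042 in normal replicates 1 to 3. It was 1780, 1686 and 1695 in untreated and 2002, 1679 and 1778 in SOT replicates. On the CPM scale untreated and SOT libraries overlapped, and SOT replicate 2 was the lowest library. Between SOT and untreated folds, the median log2 fold change of all tested genes was 0.13 with log2(FPKM + 0.1), against 0.01 with counts.

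**Figure D4:**
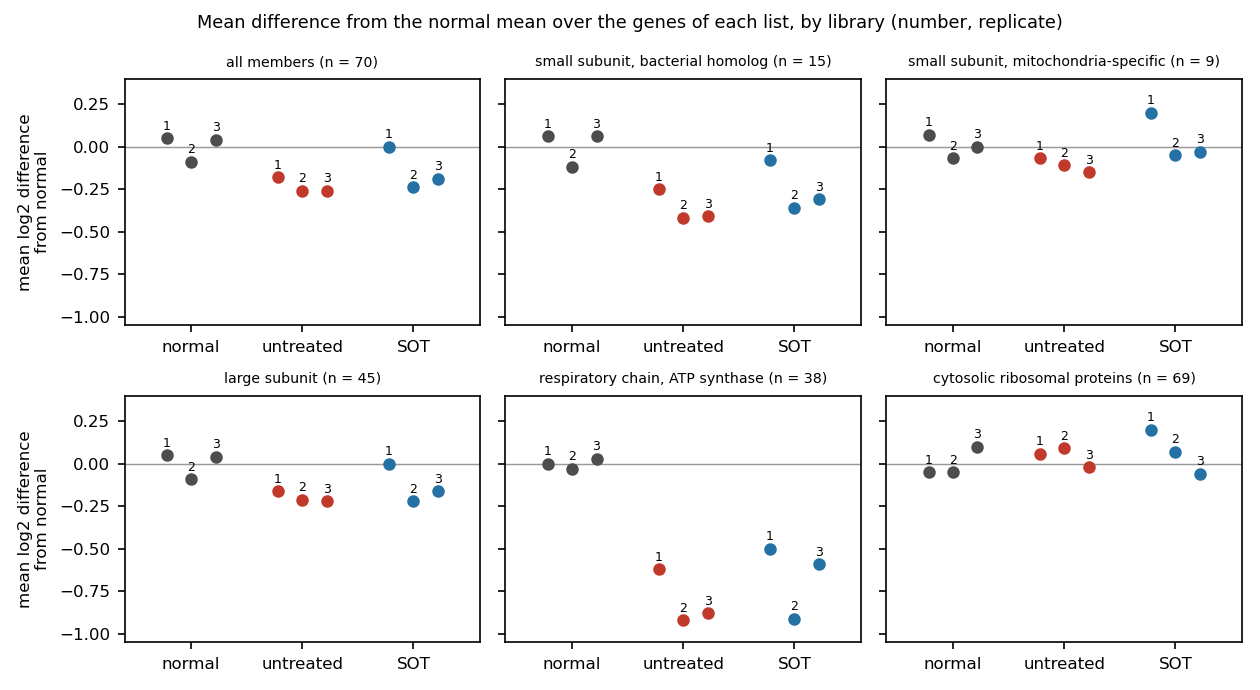
Mean log2 difference from the normal mean (vertical axis) over the genes of 6 lists in each of the 9 libraries, with the replicate number above each point. For all 70 members untreated libraries lie at -0.18 to -0.26 and SOT replicate 1 at 0.00, while respiratory chain genes lie between -0.50 and -0.92 in every injured library and cytosolic ribosomal proteins between -0.06 and 0.20.

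Beside these values stand the muscle markers. Their mean log2 difference from normal was -1.57, -4.55 and -2.77 in untreated replicates 1 to 3 and -1.62, -3.54 and -1.41 in SOT replicates 1 to 3. Their part in the levels of the members was not tested.

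Several lists of related genes place the members among other mitochondrial genes. The products of mitoribosomes assemble with nuclear subunits of the respiratory chain and ATP synthase. The list of these held 69 symbols, with ATP synthase subunits under both older and newer names, and 38 genes had a row under a listed symbol. Of these 38 genes 36 fell between untreated and normal folds (94.7%, against 15.1% of all tested genes). Their median was -0.82, against -0.02 for all tested genes. Their summed FPKM was 6120 ± 148 (SD, n = 3) in normal, 3358 ± 413 in untreated and 3974 ± 541 in SOT folds. The count was 31 to 36 in the 9 fits that leave out 1 library. Examples are ATP5G1, the ring subunit of ATP synthase (-1.62, adjusted p = 0.00157, edgeR), and SDHA, the flavoprotein of complex II (-1.42, adjusted p = 0.00305). Between SOT and normal folds 29 of 38 fell (76.3%, against 7.67% of all tested genes), with a median of -0.67. That count was 9 without normal replicate 1, 19 without normal replicate 2 or 3, and 15 without SOT replicate 2. The difference between this list and the members was not tested.

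The messenger RNAs that mitoribosomes translate come from the mitochondrial chromosome, and 11 of its genes had a row (a list added after the table was seen). Only 2, ATP8 and ND4L, passed the filter on low counts. ND4L, a subunit of complex I, was at 0.599, 0.792 and 0.852 CPM in normal, 0.335, 0.276 and 0.251 CPM in untreated and 0.388, 0.262 and 0.260 CPM in SOT replicates, with every injured library below every normal one. It fell between untreated and normal folds by 1.37 on the log2 scale (adjusted p = 0.0448, edgeR), a call lost in every fit that leaves out 1 library other than normal replicate 3. ATP8, a subunit of ATP synthase, was at 1.73, 1.58 and 0.00 CPM in normal and 0.711, 0.615 and 0.565 CPM in untreated replicates, groups that overlapped (-0.80, adjusted p = 0.612). Summed FPKM of the 11 genes was 467 ± 143 (SD, n = 3) in normal, 143 ± 18.5 in untreated and 177 ± 36.5 in SOT folds, and all injured libraries lay below all normal ones. That sum includes the genes that did not pass the filter on low counts, and the deposited measures disagreed. In normal replicates 1 to 3 summed FPKM was 370, 399 and 631. Summed CPM of the 2 tested genes was 2.33, 2.37 and 0.852 there. The reason was not tested. Selection on oligo(dT) beads reads these RNAs only as far as they carry poly(A) tails.

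Proteins of the cytosolic ribosome had a median of 0.04 over 69 genes, beside -0.02 for all tested genes. RPLP0, of the stalk of the large subunit, rose by 0.58 (adjusted p = 0.0146, edgeR, lost without normal replicate 1 or untreated replicate 2 or 3), and RPL35A fell by 0.67 (adjusted p = 0.0078). A rise appeared in 2 genes without normal replicate 3, and a fall in 2 without SOT replicate 2. Of the mitoribosomal proteins that carry other symbols, 5 were measured. All 5 (DAP3, CHCHD1, AURKAIP1, PTCD3 and GADD45GIP1) were fitted below 0 with a median of -0.23, and none passed. DAP3, a GTP-binding protein of the small subunit, was at 37.9 ± 0.802 CPM in normal and 33.5 ± 0.225 CPM in untreated folds (-0.18, adjusted p = 0.219).

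**Figure D5:**
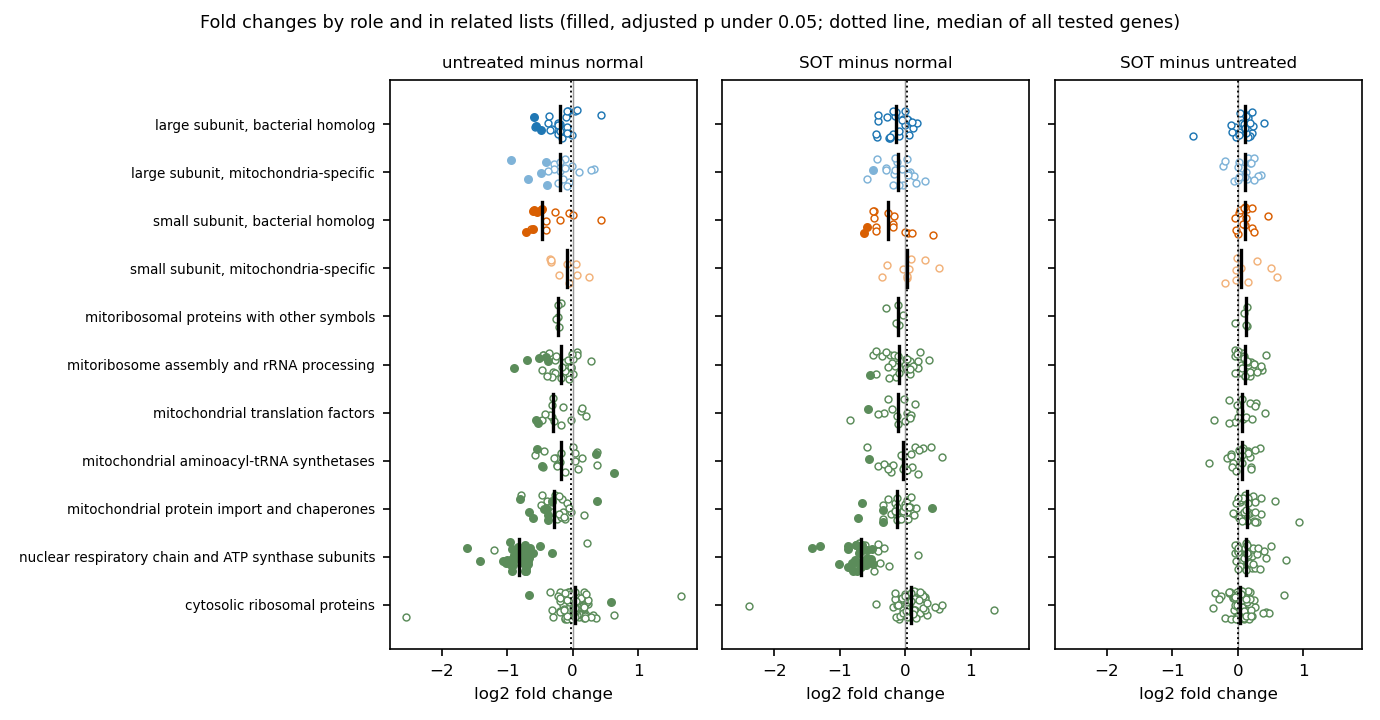
Log2 fold changes (horizontal axis) of single genes in 4 classes of members and 7 related lists for the 3 comparisons, filled where adjusted p was under 0.05, with list medians as black bars and the median of all tested genes as a dotted line. Between untreated and normal folds the bacterial-type small subunit genes have a median of -0.47, the mitochondria-specific ones -0.08 and the respiratory chain genes -0.82, and in the SOT minus untreated panel no gene shown passed.

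Factors that build the mitoribosome or mature its RNA had a median of -0.18 over 31 genes, of which 5 fell (16.1%, against 15.1% of all tested genes) and none rose. GRSF1, an RNA-binding protein of mitochondrial RNA granules, fell from 123 ± 21.4 CPM to 66.0 ± 2.40 CPM (log2 fold change -0.89, adjusted p = 0.00201, edgeR), and passed in all 9 fits that leave out 1 library. NSUN4, a ribosomal RNA methyltransferase, fell by 0.70 (adjusted p = 0.0367), and LRPPRC, which stabilises mitochondrial messenger RNAs, by 0.52 (adjusted p = 0.0244). The count of 5 became 1 when normal replicate 1, untreated replicate 2 or untreated replicate 3 was left out, 2 when untreated replicate 1 was, and 3 when normal replicate 2 was. NSUN4 was lost without normal replicate 1 or 2 or any untreated library, and LRPPRC without normal replicate 1 or untreated replicate 2 or 3.

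Of 15 translation factors 2 fell (13.3%, against 15.1% of all tested genes), with a median of -0.30 over the list. GFM1, an elongation factor, was at -0.56 (adjusted p = 0.0282, edgeR) and GUF1, a related GTPase, at -0.53 (adjusted p = 0.00813). GFM1, and with it 1 of the 2 calls, was lost without normal replicate 1 or untreated replicate 2 or 3. The elongation factor TUFM had a value of -0.28 (adjusted p = 0.0965). Of 21 genes of aminoacyl-tRNA synthetases and the related amidotransferase, 2 rose and 2 fell (19.0% called, against 32.8% of all tested genes). GARS was at 0.64 (adjusted p = 0.0295, edgeR) and rose, and GATC (-0.55, adjusted p = 0.0125) and NARS2 (-0.47, adjusted p = 0.0371) fell. GATC was lost without untreated replicate 3. GARS was lost when replicate 2 or 3 of either normal or untreated folds was left out, and NARS2 when any 1 of the 6 libraries compared was, with adjusted p up to 0.113.

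The list of mitochondrial protein import and chaperone genes had a median of -0.29 over 30 genes. Of these 8 fell (26.7%, against 15.1% of all tested genes) and 1 rose. DNAJC19 (-0.81, adjusted p = 0.0125, edgeR) and SAMM50 (-0.67, adjusted p = 0.0123) fell most, and both were lost without untreated replicate 2 or 3. TOMM34 rose by 0.37 (adjusted p = 0.0272) and was lost without any normal library or untreated replicate 1 or 3. The count of 8 became 4 when normal replicate 1 was left out, 5 for normal replicate 3, 3 for untreated replicate 2 and 1 for untreated replicate 3.

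Of 14 regulators of mitochondrial biogenesis 3 fell and 1 rose between untreated and normal folds. Of 12 genes of mitochondrial DNA maintenance and transcription 2 fell and 1 rose. The shares called in either direction, 28.6% and 25.0%, lay below the 32.8% of all tested genes. The shares that fell were 21.4% and 16.7%, against 15.1%. PPARGC1A, a coactivator that drives mitochondrial biogenesis, was at 29.0 ± 5.11 CPM in normal, 7.56 ± 3.78 CPM in untreated and 16.4 ± 5.48 CPM in SOT folds. Its log2 fold change between untreated and normal folds was -1.94 (SE 0.38, adjusted p = 0.00677, edgeR), and between SOT and untreated folds 1.12 (adjusted p = 0.287). PPARA, a nuclear receptor of fatty acid oxidation, fell by 1.19 (adjusted p = 0.00304), and these 2 calls held in all 9 fits that leave out 1 library. SIRT3, a mitochondrial deacetylase, fell too, PPARD rose by 0.61 (adjusted p = 0.0364, lost without normal replicate 1 or 2 or untreated replicate 2 or 3), and the median of the 14 genes was -0.15. Of 12 genes of mitochondrial DNA maintenance and transcription, MTERF2 fell by 1.02 (adjusted p = 0.00428) in all of these fits. TFAM, which packages mitochondrial DNA, fell by 0.36 (adjusted p = 0.039) and was lost without normal replicate 1 or 3 or any untreated library. MGME1, a mitochondrial nuclease, rose by 0.66 (adjusted p = 0.0441) and kept its call only without normal replicate 2. MYC had a value of 0.12 (adjusted p = 0.666). None of the genes in these lists passed between SOT and untreated folds.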

How the data were processed

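RNA was selected with oligo(dT) beads, per the labels' protocols, and the submitters' processing notes name cutadapt 1.9, HISAT2 2.0.4, StringTie 1.3.4d, edgeR and OryCun2.0. What each tool did, the strandedness and the treatment of multi-mapping reads were not given in these sources. The table deposited by the authors holds whole-number counts and FPKM per gene and library, per the file headers. Members and gene lists were chosen with earlier results of these data known.

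Counts of all 9 libraries were fitted together, 1 mean per group, in edgeR 4.0.16 (R 4.3.3) with TMM scaling, filterByExpr and the quasi-likelihood test, with Benjamini-Hochberg adjustment over 17344 genes and calls at adjusted p under 0.05. CPM compared libraries and FPKM compared genes. DESeq2 1.42.0, limma 3.58.1 (voom with quantile normalization, and log2 FPKM with 0.1 or 1 added), upper-quartile scaling, no filter, the 6 libraries compared, a replicate block and leaving out each library were tried. Lists were described by counts and medians, without set tests. Named members were the 5 called genes that fell most per comparison (the 2 with the smallest p in a direction with no call), extremes of level and spread, and a fixed list, and of related lists the 2 called genes that moved most in each direction and a fixed list. RefSeq symbols of assembly mOryCun1.1 gave 74 names of this form, of which 68 were members. MRPL12, MRPS2 and MRPS34 of the fixed list, and promoter sequences, were not analysed here. A further 11 rows with locus names are described in the deposited table as mitoribosomal proteins, and 7 members have such a near copy. LOC100343402 and LOC100356693 among these rows are described as MRPL23 and MRPL15, which are not members. The result of 1 gene of a related list is not reported here.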

Additional observations from a re-analysis of the deposited data

How the results depend on the processing

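The direction of the median fold change of the 70 genes held in all 17 alternatives of each comparison, and relative to the median of all tested genes it ranged from -0.25 to -0.17 (untreated minus normal), 0.02 to 0.16 (SOT minus untreated) and -0.21 to -0.08 (SOT minus normal). For untreated minus normal, upper-quartile scaling gave 25 calls and a median of -0.31, and leaving out 1 library gave 5 to 19 calls and medians of -0.28 to -0.18. For SOT minus untreated, DESeq2 gave 1 call, and the medians were 0.25 with log2(FPKM + 0.1) and 0.23 with log2(FPKM + 1). Without SOT replicate 1 that median was 0.05, which is 0.02 above the median of all tested genes, and it was 0.09 to 0.19 when any other library was left out. For SOT minus normal, DESeq2 gave 9 calls (8 lower, 1 higher), voom 7 (6 lower, 1 higher) and the 6 libraries alone 1, leaving out 1 library gave 1 to 8 calls and medians of -0.19 to -0.05, and both FPKM scales gave a median of -0.04. The cause of these differences was not tested. Without MRPS36 and the 7 members with a near copy, 13 of 62 genes fell between untreated and normal folds. The labels do not say whether replicate numbers pair the libraries. Same-numbered libraries correlated between -0.048 and 0.267 in their deviations from group means, and differently numbered ones between -0.276 and 0.174. With 3 libraries per group these values cannot decide whether libraries were paired. The fit with the replicate number as a block gave 15, 0 and 6 calls for the 3 comparisons in the order above. The members picked by the naming rule stayed on the same side of the threshold in 1282 results under alternatives, passed newly in 12 and were lost in 32. No member that passed in a comparison passed there in the opposite direction under an alternative. The direction of values that did not pass was not always kept. MRPL20, for example, was at -0.03 between SOT and normal folds with counts. Its mean FPKM was 83.2 in SOT and 79.0 in normal folds. The losses of the other called members when 1 library was left out are given in the report. With 3 libraries per group an exact permutation test of 1 gene cannot give p under 0.1, and no member had under 100 counts in any library.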

Other observations

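The level of MRPL17 was uneven, with normal replicate 2 and SOT replicates 1 and 2 at 36.2, 46.8 and 45.0 CPM. The other 6 libraries were at 84.7 CPM or above. After these values were seen, they were compared with the rows under locus names that are described as mitoribosomal proteins. Of 11 such rows, a pair of loci was picked after their values were seen. Both are described as MRPS17, a small subunit protein with a bacterial counterpart, and were lowest in the same SOT libraries. LOC100349495 was at 2.67, 1.76 and 3.25 CPM in normal, 2.11, 2.61 and 2.76 CPM in untreated and 0.429, 0.766 and 2.01 CPM in SOT replicates. LOC100351745 was at 1.78, 1.14 and 1.86 CPM in normal, 1.49, 1.55 and 1.61 CPM in untreated and 0.123, 0.486 and 1.41 CPM in SOT replicates. Within the normal group replicate 2 was the lowest for both loci, as it was for MRPL17. The row named MRPS17 was at 18.9, 18.2 and 20.7 CPM in normal, 16.1, 16.4 and 15.5 CPM in untreated and 22.4, 18.1 and 16.6 CPM in SOT replicates. Other rows did not follow MRPL17: LOC100338018, annotated as MRPL32, was at 1.14, 0.224 and 1.06 CPM in SOT replicates, and LOC100340423, annotated as MRPL48, at 4.72, 5.07 and 3.98 CPM. No cause was tested.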
